A study of Bos taurus with 32 samples.

Results

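The adrenal gland was set against the pituitary of the same animals in 16 of the 32 libraries of the series, 8 from each gland, chosen by tissue and joined by the animal number that both libraries of a calf carry. The calves were 8 male Holsteins. IVP calves (3208, 3209, 5833 and 5841) came from embryos made in vitro, and MOET calves (3213, 3217, 3218 and 5932) from embryos conceived in vivo after superstimulation of the ovaries and insemination. Recipient cows carried the embryos of both origins, and the calves were kept alike after birth. MOET calf 3213 was 144 days old at collection and the other 7 calves were 98 to 104 days old, so age and that calf cannot be told apart. Each calf gave 1 library per gland, and both embryo origins, 4 calves each, entered the comparison together.

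The anterior pituitary secretes peptide hormones, among them adrenocorticotropic hormone, which drives the adrenal cortex to make glucocorticoids from cholesterol. The adrenal medulla, a neural crest tissue inside the cortex, makes catecholamines. The labels name only the gland and do not say which lobe of the pituitary, or how much cortex and medulla, was taken. The count table carries Ensembl gene IDs with no symbols, and 0 of its 27607 IDs could be paired with a symbol in the reference table used here. Genes are therefore described by their values and their rank, 4 of them by ID, and the labelled tissues were not checked against marker genes. In bulk RNA of a gland, fewer cells of a type and less RNA per cell cannot be told apart.

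Library totals were 17357283 to 19483453 counts in the adrenals and 20164948 to 23380330 in the pituitaries. Levels are given as CPM, a gene's share of its library's TMM-scaled total of counts. The rank correlation of gene levels (Spearman, across genes, which are not independent replicates) was 0.944 to 0.997 between libraries of the same gland and 0.759 to 0.830 between an adrenal and a pituitary.

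The small counts of the table did not fall off evenly. A count of 2 was rarer than a count of 3 in 29 of the 32 libraries. In the 6 adrenals of this kind, 165 to 202 genes stood at 2, against 1265 to 1390 at 1 and 381 to 431 at 3. In the 7 pituitaries of this kind, 257 to 365 genes stood at 2 and 522 to 577 at 3. The exceptions were the adrenals of calves 3213 and 5833 and the pituitary of calf 3213. The sources used here do not say whether the counts were adjusted once reads had been assigned. The tests that follow take them as read counts, so their p-values and intervals hold only as far as that is true.

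A second feature of the small counts touched the adrenals of calves 5833 and 3213. Adrenal 5833 had a count of 0 or 1 for 164 genes that had at least 10 counts in each of the other 7 adrenals, and 109 of the 164 were at 0. Adrenal 3213 had 80 such genes, 65 of them at 0. The other 6 adrenals had 2 to 28, and the 8 pituitaries 0 to 4. No library of either gland had a gene at 2 or 3 under this rule, while 19 entries in the adrenals and 20 in the pituitaries were at 4 or 5. In the 16 libraries 311 genes held such an entry, called a displaced 0 or 1 here. Results are given with and without these 2 calves, or without these genes, where that changed them.

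**Figure D1:**
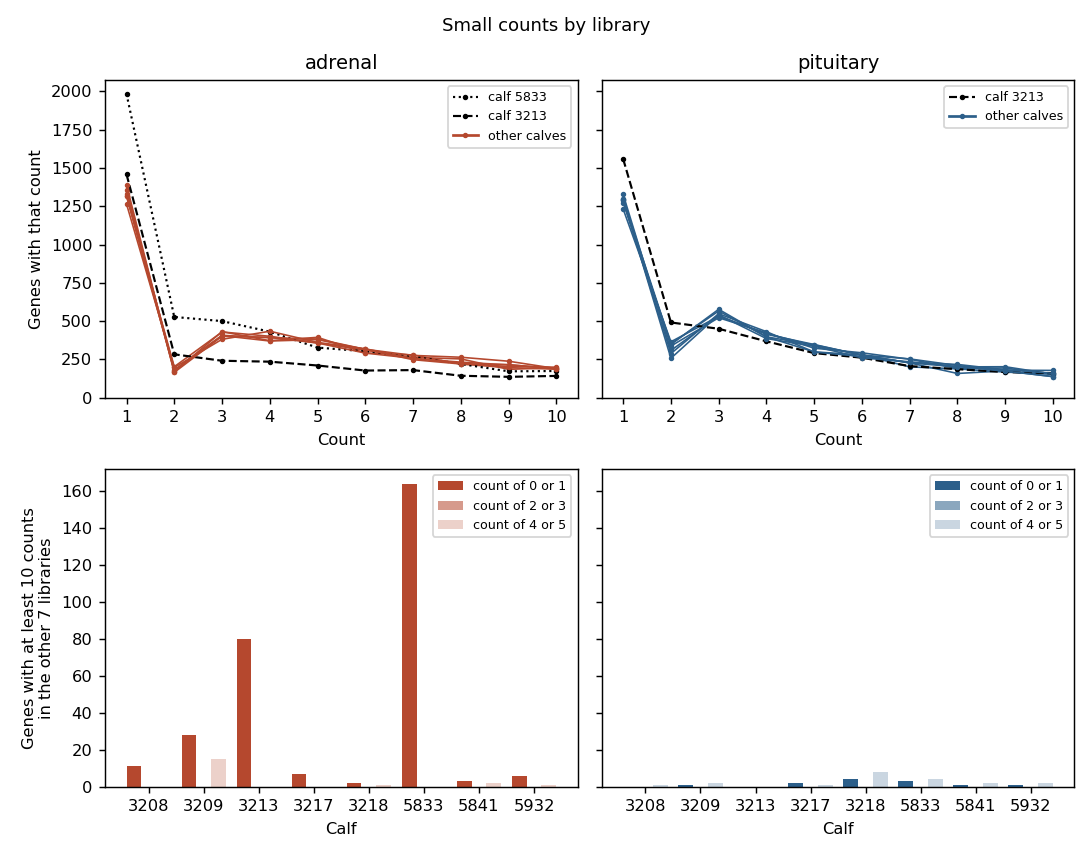
Upper panels show how many genes had each count from 1 to 10 in each library (1 line per library, libraries where 2 was not rarer than 3 in black), and lower panels show for each calf how many genes with at least 10 counts in the other 7 libraries of the gland had a count of 0 or 1, 2 or 3, or 4 or 5. Most lines dip at 2, and adrenal 5833, with 164 genes at 0 or 1, and adrenal 3213, with 80, stand above the other libraries.

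Most genes read in the 2 glands differed between them. Of 15869 genes tested, 12858 (81%) passed edgeR's quasi-likelihood test with the calf as a block, at a Benjamini-Hochberg adjusted p under 0.05. With TMM scaling 6338 genes (39.9%) were higher in the adrenal and 6520 (41.1%) higher in the pituitary, and on library totals alone 7086 and 5350. The median absolute log2 fold change over all genes tested was 0.84, with a median SE of 0.13. Genes higher in the pituitary differed by more, with a median of 1.18 on the log2 scale, against 0.94 for genes higher in the adrenal. The levels of the 8 adrenals and the 8 pituitaries did not overlap for 9463 genes (59.6%). Without calves 3213 and 5833, 12009 genes passed.

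Differences under 2-fold made up 3356 of the genes higher in the adrenal and 2746 of those higher in the pituitary. Between 2-fold and 4-fold lay 1893 and 1984 genes. At least 4-fold higher were 1089 genes in the adrenal (6.86% of all tested) and 1790 in the pituitary (11.3%). The pituitary had more genes at each further step: a log2 fold change of 8 or more was fitted for 88 genes higher in the pituitary and 43 higher in the adrenal. Without TMM scaling, on library totals alone, the median log2 fold change of all genes moved from -0.03 to 0.14, but the 4-fold genes were still more numerous in the pituitary, 1571 against 1262.

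The direction was shared by nearly every calf. Of the 1089 genes at least 4-fold higher in the adrenal, 1065 were higher there in all 8 calves and 1049 had levels that did not overlap. Of the 1790 genes at least 4-fold higher in the pituitary, 1771 were higher there in all 8 calves and 1742 did not overlap. Since the genes were chosen by this same contrast, these counts describe them and are no separate evidence. The remaining 3011 genes did not pass. The 95% interval of the fold change lay within 0.5 log2 units of 0 for 2751 genes (17.3% of those tested), called or not, so for these a difference of more than that size was outside the interval.

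**Figure D2:**
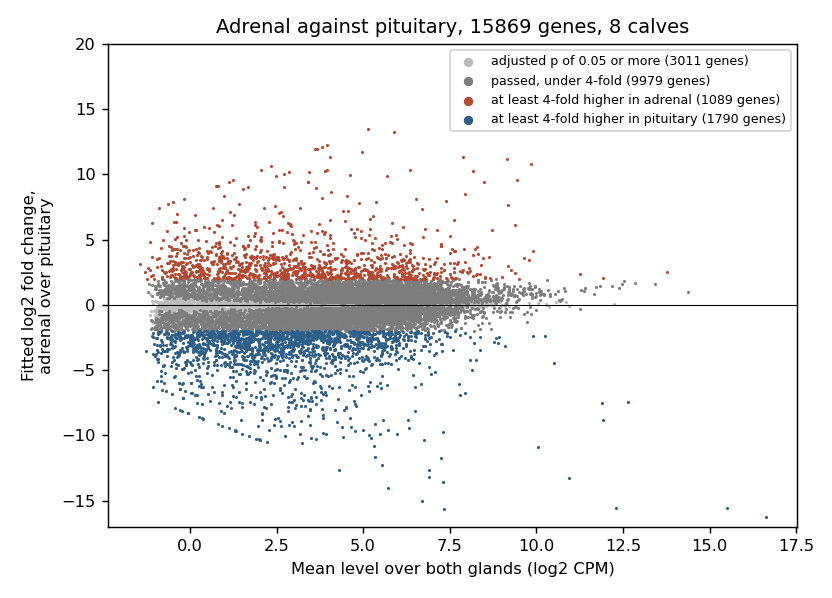
Fitted log2 fold change of adrenal over pituitary (vertical axis) against the mean level over both glands in log2 CPM (horizontal axis), 1 point per gene, with colours for the 1089 genes at least 4-fold higher in the adrenal and the 1790 at least 4-fold higher in the pituitary. The highest mean levels, at the right edge, belong to genes far below 0, which were higher in the pituitary.

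The pituitary libraries were dominated by a few genes and the adrenal libraries were not. The most counted gene of a library took 2.80% to 3.71% of the counts in the adrenals, with a median of 3.30%, and 11.5% to 26.0% in the pituitaries, with a median of 19.8%. The 2 ranges lie far apart, and the pituitary share varied more from calf to calf (mean 18.7% ± 4.52, SD, n = 8) than the adrenal share (3.23% ± 0.324, SD, n = 8). The 10 most counted genes took 13.2% ± 1.19 of adrenal and 33.7% ± 4.41 of pituitary counts. For the 100 most counted genes the shares were 28.3% ± 2.21 and 43.5% ± 4.03. Each share was higher in the pituitary of all 8 calves, with an exact two-sided sign-flip test over calves at p = 0.00781 for each (adjusted p = 0.00781 over 4 measures), the smallest that 8 pairs allow.

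More genes reached 1 CPM in the pituitary. Genes at 1 CPM or more numbered 13889 to 14447 in the adrenals, with a mean of 14183 ± 186, and 14515 to 14822 in the pituitaries, with a mean of 14647 ± 95.1 (SD, n = 8). The ranges did not overlap, and the pituitary had more genes in all 8 calves (exact sign-flip p = 0.00781, adjusted p = 0.00781). By genes with any count the order was not the same in every calf. Calf 5833 had 7723 genes at 0 in the adrenal and 8123 in the pituitary, and calf 3218 had 8082 and 8242. In the other calves more genes were at 0 in the adrenal. The pituitaries also had the larger totals, and the TMM factors averaged 1.06 in the adrenals and 0.946 in the pituitaries. The share of the difference at 1 CPM that comes from depth or scaling was not tested. A difference between IVP and MOET calves in these gland differences was not detected by exact permutation of 4 against 4 calves (adjusted p = 0.343 to 0.829). The smallest p possible is 0.0286, or 0.114 for 1 measure alone once adjusted over 4, so the test could hardly have passed and says little on origin.

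**Figure D3:**
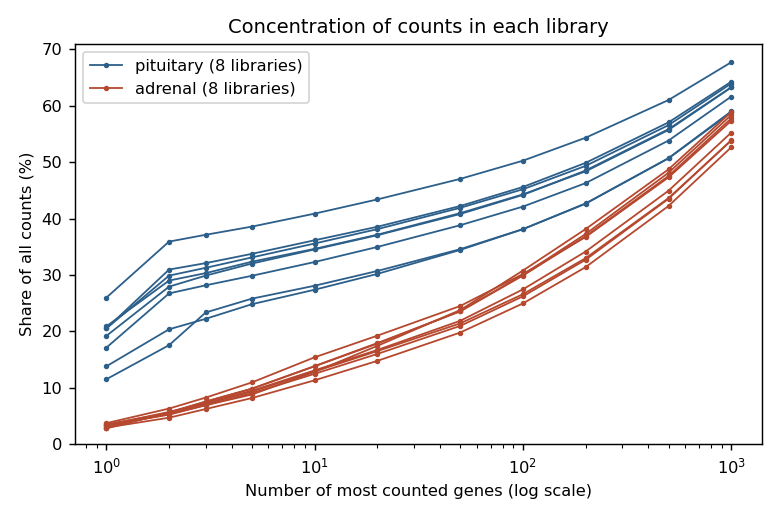
Share of all counts of a library (vertical axis, %) taken by its most counted genes, against the number of genes summed (horizontal axis, log scale), 1 line per library. All 8 pituitary lines lie above all 8 adrenal lines from 1 to 100 genes, at 11.5% to 26.0% against 2.80% to 3.71% for the first gene.

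Genes at least 4-fold higher in a gland made up a larger part of the pituitary's counts than of the adrenal's. The 1790 pituitary genes held 31.7% to 44.4% of the counts of the pituitaries and 0.716% to 1.08% of those of the adrenals. Without the 2 most counted genes, the rest of them held 8.47% to 15.04% of pituitary counts. The 1089 adrenal genes held 10.8% to 12.6% of adrenal and 1.32% to 1.72% of pituitary counts. A larger part of the adrenal genes were well expressed, with 194 of 1089 at 100 CPM or more in their gland, against 146 of 1790 pituitary genes.

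Among the 10 most counted genes of the pituitary, 6 were at least 4-fold higher there, 3 were higher in the adrenal and 1 did not pass. All 10 most counted adrenal genes were higher in the adrenal, but only 2 by at least 4-fold. The most counted adrenal gene had 334023 to 717823 counts in the adrenals and 255286 to 315630 in the pituitaries, where it held rank 3. Its log2 fold change was 0.99 (SE 0.12, edgeR's quasi-likelihood test, Benjamini-Hochberg adjusted p = 2.82e-05). Thus 3 of the 10 most counted genes were the same in both glands. The second adrenal gene, at 330316 to 599810 counts, was farther from the pituitary, which had 72212 to 102865 (log2 fold change 2.53, SE 0.15, edgeR adjusted p = 1.90e-07).

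The first gene of the pituitary was ENSBTAG00000015274. It had 2387252 to 6072213 counts in the pituitaries, with a median of 4187062.5, and 33 to 77 counts in the adrenals, with a median of 49. Every pituitary lay far above every adrenal. The ratio of summed counts per TMM-scaled total was 77274, with a 95% counting interval of 70111 to 85377. The fitted log2 fold change was -16.23 (SE 0.28, edgeR's quasi-likelihood test, Benjamini-Hochberg adjusted p = 1.24e-10). The hypothalamus had 198 to 10294 counts of it, the highest in calf 5932, and the testicle 31 to 137. The adrenal and testicle ranges overlapped, and the hypothalami were spread more widely than the libraries of either gland.

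Of the pituitary genes at ranks 2 to 7 by count, the one at rank 3 was the most counted adrenal gene described above, and the other 5 were at least 4-fold higher in the pituitary. The second had 1203538 to 2330312 counts in the pituitaries against 18 to 55 in the adrenals, a log2 fold change of -15.60 (SE 0.25). The fifth had 93354 to 408540 against 1 to 7 (log2 fold change -15.59, SE 0.24). The sixth and seventh were read at a low level in every adrenal, at 232 to 707 and 483 to 1569 counts, against at least 113006 and 88235 counts in every pituitary. Within the pituitary these genes varied from calf to calf, and the fourth varied most. It had 1254763 counts in pituitary 5932, 42897 to 394619 in the other 7 pituitaries and 472 to 961 in the adrenals (log2 fold change -7.47, SE 0.79, edgeR adjusted p = 1.28e-05). The share of pituitary counts in this gene was 6.04% in calf 5932 and 0.195% to 1.96% in the other 7, and its mean was 1.27% with calf 5932 and 0.583% without.

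The other pituitary gene named by the rule (the 2 largest fitted fold changes in each direction at 100 CPM or more) was ENSBTAG00000009128. It had 4295 to 7580 counts in the pituitaries, with a median of 7007.5, and 0 in all 8 adrenals. The groups were wholly apart, and against a floor of 3 counts over the 8 adrenals the level was at least 16743-fold higher in the pituitary (edgeR's quasi-likelihood test, Benjamini-Hochberg adjusted p = 3.18e-05). The hypothalamus had 0 to 15 counts and the testicle 0 to 3. Of the 4 tissues, the pituitary was thus the only one with more than 15 counts of this gene in any library.

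On the adrenal side the leading gene by fold, among those at 100 CPM or more that passed the low-count filter, was ENSBTAG00000012211. It had 1358 to 3009 counts in the adrenals, with a median of 2443, while 7 pituitaries had 0 and 1 had a single count. The ratio per TMM-scaled total, from sums of 18800 and 1 counts, was 19726. It is loosely fixed, with a 95% counting interval of 3540 to 779170. The edgeR adjusted p was 1.02e-10. The testicle had 6 to 86 counts and the hypothalamus 0 to 2, so both were far below the lowest adrenal. Its mean was 122 ± 30.5 CPM in IVP and 117 ± 29.4 CPM in MOET adrenals (SD, n = 4), a difference smaller than the spread between calves.

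ENSBTAG00000014335 came next on the adrenal side. It had 5963 to 12705 counts in the adrenals, with a median of 9502, and 2 to 5 counts in the pituitaries. The ratio was 2615 (95% counting interval 1832 to 3877) and the fitted log2 fold change 11.30 (SE 0.14, edgeR's quasi-likelihood test, Benjamini-Hochberg adjusted p = 7.35e-11). The testicle had 16346 to 50568 counts of it, above every adrenal, and the hypothalamus 0 to 34. The counting intervals cover counting error only, and as the libraries are unstranded, reads of a gene overlapping on the opposite strand cannot be told apart from these.

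**Figure D4:**
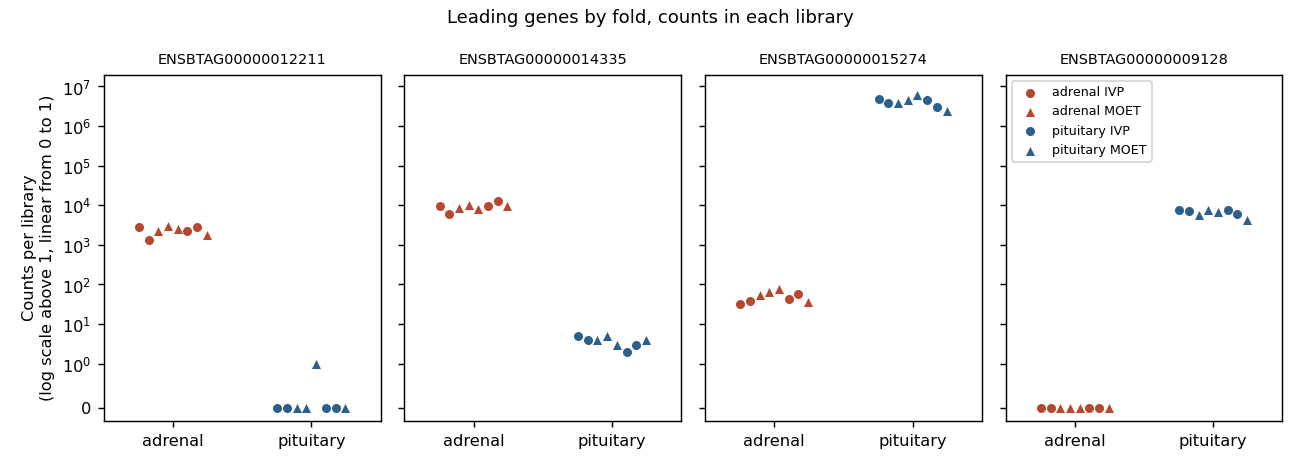
Counts in each library (vertical axis, log scale above 1 and linear from 0 to 1) for the 4 named genes, by gland (colour) and embryo origin (circles IVP, triangles MOET), 1 point per calf. These had the leading fold changes among tested genes at 100 CPM or more in the higher gland. For each gene the 8 libraries of 1 gland lie apart from the 8 of the other, and ENSBTAG00000009128 is at 0 in all 8 adrenals.

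Few of the genes tested were read in 1 gland alone. Genes left out by the low-count filter, some of them through adrenal 5833, are not in these counts. At a mean of at least 10 CPM in the adrenal, 16 genes had at most 3 counts over the 8 pituitaries, and 6 of them had 0. In the other direction 20 genes reached 10 CPM in the pituitary with at most 3 counts over the 8 adrenals, and 4 had 0. Many genes at least 4-fold higher in a gland were still read in the other one, though fewer than of all genes. Of the 1089 adrenal genes 608 (55.8%) had a mean of 1 CPM or more in the pituitary, against 92.3% of all genes tested. Of the 1790 pituitary genes 897 (50.1%) had 1 CPM or more in the adrenal, against 89.3%.

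The other 2 tissues of the calves, which took no part in choosing these genes, differed in their share of them. Of the 1790 pituitary genes, 1098 were highest in the pituitary, 566 (31.6%) in the hypothalamus and 126 (7.04%) in the testicle. Of the 1089 adrenal genes, 666 were highest in the adrenal, 278 (25.5%) in the testicle and 145 (13.3%) in the hypothalamus. Over all 15869 genes tested the shares were nearly even, at 24.6% for the pituitary, 25.6% for the adrenal, 25.8% for the hypothalamus and 24.0% for the testicle. The median level of the adrenal genes in the testicle was 8.02 CPM and that in the hypothalamus 4.98 CPM, and the pituitary genes had 1.86 and 6.34 CPM there. The choice of the lists left 0 genes of either one highest in the other gland, so the shares over all genes are not a like baseline. These are descriptions of the lists over libraries of the same 8 calves, with no test.

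By the median over genes, calves differed more in the adrenal than in the pituitary. The median SD of log2 CPM within an origin was 0.20 in the adrenal and 0.14 in the pituitary over all genes tested. The order was not the same in every measure: the chi-square per degree of freedom between 2 calves of an origin was 18.2 to 189 in MOET pituitaries and 5.12 to 16.1 in MOET adrenals, and 5.57 to 43.1 in IVP pituitaries and 13.2 to 91.2 in IVP adrenals. For the genes at least 4-fold higher in a gland, the spread was wider in the gland where they were low, with 0.45 in the adrenal for pituitary genes (0.22 in the pituitary) and 0.34 in the pituitary for adrenal genes (0.27 in the adrenal). Low counts vary more by counting alone, and the part this had in the difference was not tested.

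Without calves 3213 and 5833 the median SD over all genes tested was 0.25 in the adrenal and 0.16 in the pituitary. For a small number of genes a single library lay far from the rest. Adrenal 5833 lay at least 4-fold below each of the other 7 adrenals for 127 of the genes tested, and adrenal 3213 for 116. The other 6 adrenals had 2 to 28 such genes and the pituitaries 0 to 3. In adrenal 5833, 84 of the 127 were at 0 counts, and in adrenal 3213, 101 of the 116. The 127 genes had a median of 1.82 to 3.68 CPM in the other 7 adrenals, and 64 of them were highest in the hypothalamus and 35 in the pituitary. Of the 116 genes, 33 were highest in the hypothalamus and 39 in the pituitary. Of the 127 genes 11 were among the adrenal genes and 48 among the pituitary genes at least 4-fold higher, and of the 116 genes 2 and 40, where 6.86% and 11.3% of all genes tested were. The libraries that chose these genes are part of that contrast and of the tissue means, so nothing is read from the shares. In the opposite direction pituitary 3218 lay at least 4-fold above the other 7 for 32 genes. By tissue means 25 of them (78.1%, against 24.6% of all genes tested) were highest in the pituitary. Pituitary 3218 chose these genes and enters that mean, so nothing is read from this share. Their median was 0.0468 to 3.74 CPM in the other 7 pituitaries and 0.479 to 3.51 CPM in the adrenals.

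The filter on low counts also acted through adrenal 5833. It left out 73 of the 311 genes with a displaced 0 or 1, 50 of them displaced in adrenal 5833 and 5 in adrenal 3213. Without the filter 72 of the 73 passed, and 66 were at least 4-fold higher in the adrenal. The most counted of these had 0 counts in adrenal 5833 and 12251 to 152610, with a median of 39252, in the other 7 adrenals. The pituitaries had 0 to 8 counts of it, the hypothalamus 1 to 10 and the testicle 30 to 87. It was well expressed in 7 adrenals and unread in the eighth, which kept it out of the genes tested; without the filter its log2 fold change was 13.38 (SE 0.85, edgeR's quasi-likelihood test, Benjamini-Hochberg adjusted p = 1.90e-07), beside 13.26 for ENSBTAG00000012211. Without any low-count filter the genes at least 4-fold higher in the adrenal numbered 1675 in place of 1089, and without calf 5833, 1127.

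The gland ratio itself varied between calves for some well expressed genes. Among the 340 genes with at least a 4-fold difference and 100 CPM in the higher gland, the median SD of the log2 ratio over calves was 0.41, and the 5 most variable had SDs of 2.35 to 3.94. The first of them was at 240 to 729 CPM in 7 adrenals and had 1 count in adrenal 5833, with 0.375 to 1.78 CPM in the pituitaries. The next 3 were pituitary genes with 0 counts in adrenal 5833 and all had their highest adrenal level in calf 3209. They included a gene at 16.7 to 162 CPM in the other 7 adrenals and 117.5 to 229 CPM in the pituitaries. The groups overlapped for that gene (log2 fold change -2.55, SE 0.71, edgeR adjusted p = 0.00752). The fifth had 14.4 to 811 CPM in the pituitaries, the highest in calf 3218, and 5.02 to 55.8 CPM in the adrenals.

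Whether the gland difference depended on embryo origin was tested as an interaction in the same libraries. Of 15869 genes, 6403 (40.3%) passed, with a log2 ratio of adrenal over pituitary that was larger in IVP calves for 3305 (20.8%) and smaller for 3098 (19.5%). The differences were mostly modest, with a median of 0.69 log2 units (median SE 0.16). Of the 6403 genes, 1644 differed by at least 2-fold (25.7%, against 14.6% of all tested). By at least 4-fold 162 differed (2.53%, against 1.95% of all tested). The count moved when single calves were left out. It was 4020 without calf 3213, 3961 without calf 3218 and 3935 without calf 5833, but 7245 without calf 3208. In the fits without calf 3213, 3218 or 5833 the median difference of the 6403 genes was 0.69, 0.63 and 0.69 log2 units. Its median SE was 0.19, 0.17 and 0.19, against 0.16 with all calves. The part of these falls that comes from having fewer calves was not tested. Without calves 3213 and 5833 together, a comparison chosen after the data were seen, edgeR's quasi-likelihood test called 0 genes, with 5375 at an unadjusted p under 0.05, and the DESeq2 Wald test called 2743. The median difference of the 6403 genes was 0.69 with those calves left out, and its median SE was 0.22, against 0.16 with all calves. The 6403 genes were chosen by the same test with all calves. Their medians in the smaller fits therefore describe them and are no separate evidence, and the cause of the lower counts was not tested.

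The scaling of libraries moved with origin and weighed on the direction. TMM factors were 0.994 ± 0.0276 in IVP adrenals and 1.13 ± 0.0401 in MOET adrenals (SD, n = 4), against 0.965 ± 0.0569 and 0.926 ± 0.104 in the pituitaries. The 100 most counted genes took 30.2% ± 0.395 of the counts in IVP and 26.3% ± 1.04 in MOET adrenals. On library totals alone 5589 genes passed, and the share with a larger ratio in IVP calves went from 51.6% to 20.8%. The balance of larger and smaller ratios therefore depends on the scaling.

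Of the genes that passed, most had glands that lay farther apart in IVP calves, as had a smaller majority of all genes tested. Of the 6403, the ratio was of the same sign and farther from 0 in IVP calves for 4277 (66.8%, against 59.1% of all genes tested). On library totals these shares were 64.3% and 51.3%. The ratio was of the same sign and nearer 0 for 876 (13.7%, against 27.9% of all tested), and of opposite sign for 1250 (19.5%, against 12.9%). It was of opposite sign and at least 2-fold in both origins for 7 (0.109%, against 0.0819% of all tested). The origin difference was larger in the adrenal than in the pituitary for 5283 (82.5%, against 70.3% of all tested), and of opposite sign in the 2 glands for 5668 (88.5%, against 63.0%). The test selects for such opposite signs, so these shares are descriptions.

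Of the genes at least 4-fold different between the glands, 273 of the 1089 adrenal genes (25.1%) and 497 of the 1790 pituitary genes (27.8%) passed the interaction test, against 40.3% of all tested. The difference between these shares was not tested. In IVP calves alone 3544 of 16129 genes tested were at least 4-fold different between the glands, 1281 higher in the adrenal and 2263 in the pituitary. In MOET calves alone it was 2816 of 16164, 1130 and 1686. Genes that passed at any size numbered 12888 in IVP and 12781 in MOET calves. Adrenal 5833, with 164 displaced entries, is among the IVP calves, and adrenal 3213, with 80, among the MOET calves. The difference between these counts was not tested. In neither did a gene that was also called over all 8 calves change its direction. The calves of each origin are part of those 8, so such a change could hardly arise.

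Of the genes whose ratio was smaller in IVP calves, the first by p was at 0.993 to 1.41 CPM in IVP and 2.90 to 4.20 CPM in MOET adrenals. Its pituitary levels were 20.8 to 24.7 CPM in IVP and 17.2 to 22.5 CPM in MOET calves. The adrenal groups did not overlap and the pituitary groups did, and the log2 ratios differed by -1.89 (SE 0.16, edgeR's quasi-likelihood test, Benjamini-Hochberg adjusted p = 0.00728). The third was 21.1 ± 2.83 CPM in IVP and 41.0 ± 3.23 CPM in MOET adrenals, with 214 ± 25.9 and 182 ± 3.32 CPM in the pituitaries (SD, n = 4).

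Of those whose ratio was larger in IVP calves, the second by p was the most highly expressed of the first 5. It was at 712 to 996 CPM in IVP and 336 to 459 CPM in MOET adrenals, and at 289 to 347 CPM in IVP and 397 to 505 CPM in MOET pituitaries. Neither pair of origin groups overlapped, and the mean log2 ratio was 1.36 in IVP and -0.19 in MOET calves. The difference was 1.55 (SE 0.18, edgeR adjusted p = 0.00728). The first by p was a gene near 1 CPM, at 1.35 ± 0.520 and 0.422 ± 0.102 CPM in IVP and MOET adrenals and 0.540 ± 0.0922 and 2.24 ± 0.647 CPM in the pituitaries (SD, n = 4), with the higher level in the adrenal in IVP calves and in the pituitary in MOET calves.

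**Figure D5:**
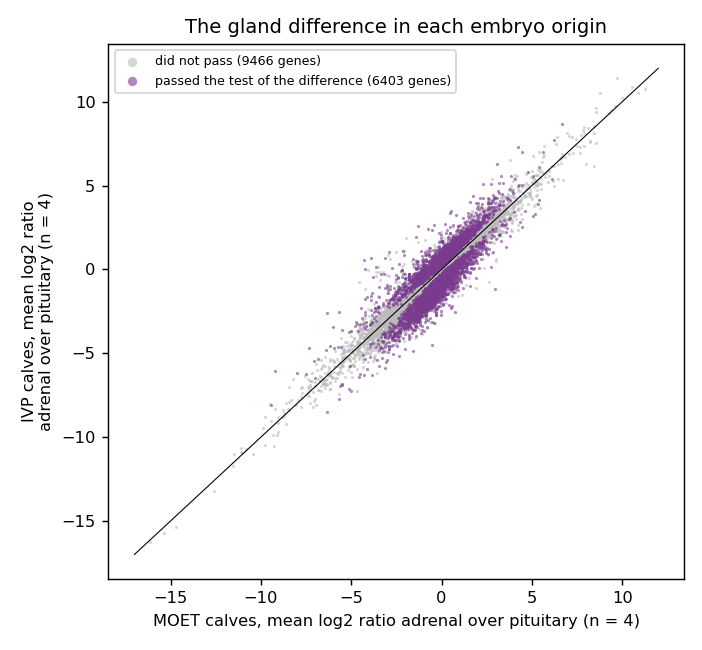
Mean log2 ratio of adrenal over pituitary in IVP calves (vertical axis, n = 4) against that in MOET calves (horizontal axis, n = 4), 1 point per gene, with the line of equal ratios; the 6403 genes that passed the interaction test are in colour. The points lie along the line over its whole length, and the coloured points spread to both sides of it at moderate ratios.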

How the data were processed

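Poly(A)-selected RNA (integrity number above 7) was made into unstranded libraries, sequenced on DNBSEQ as paired ends of 100 bases, and filtered with SOAPnuke, per the labels' protocols. STAR 2.7, HTSeq and the bosTau9 build are named in the submitters' processing notes; the annotation release, counting settings and any later adjustment, not given in the sources used here, remain unknown. The authors deposited 1 table of whole-number counts for 27607 gene IDs, with 0 entries that name no gene, 0 columns of other series and no pooled replicates. Totals of 17357283 to 23380330 counts set the precision: a floor of 3 counts is 0.131 to 0.173 CPM over the 16 libraries. Reads shared by near-identical or overlapping genes could not be followed.

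From these counts, genes were filtered with filterByExpr (minimum count 10, minimum total 15), scaled with TMM and tested with edgeR's quasi-likelihood test (robust dispersion) with calf as a block, adjusted with Benjamini-Hochberg at 0.05. The interaction with origin used the same libraries. The SE was the fold change over the root of the F statistic. Per-library measures used exact tests over calves. The 95% intervals of ratios of summed counts cover counting error only, while those of fitted fold changes rest on the SE of the fit. Both glands carry the number of the calf they came from, which pairs them; the correlation of a calf's deviations in the 2 glands ran from -0.04 to 0.25. None of the 24 same-group library pairs was identical, and all differed beyond sampling noise (chi-square 5.12 to 189 per degree of freedom).

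The comparison, its tests and its rules were chosen with earlier results of these data known. Genes to be named were the 2 with the largest fold change in each direction at 100 CPM or more, described genes the most counted, the most variable in ratio and those with the smallest interaction p. Planned descriptions of 25 gene lists, marker genes and promoter motifs needed symbols and were not run. On simulated counts for 15869 genes the gland test found 84 of 100 changes of 2-fold and 98 of 99 of 4-fold. It made 9 false calls. The interaction test found 29 of 99 and 77 of 100, with 4 false calls. Only these genes were changed in each simulation, whereas 12858 of 15869 genes passed the gland test in the data. The simulated figures are therefore not error rates for these data. Tools were edgeR 4.0.16, DESeq2 1.42.0 and limma 3.58.1 in R 4.3.3, with scipy 1.17.1 and matplotlib 3.10.9 in Python 3.11.15. Alternatives were other scalings, filters, tests and sample sets, and each calf left out.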

Additional observations from a re-analysis of the deposited data

Results flagged for a closer look

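Among 31 groups of libraries examined for a single value far from the others, 7 had one. Chance flags about 5% of groups that were not chosen by their values, but 5 of the 7 belong to genes picked for the most variable gland ratio, so that rate is no measure for them. Of the genes with the most variable gland ratio, the second had its highest adrenal level, 162 CPM, in calf 3209, where the other adrenals had 0 to 47.4 CPM. The third reached 710 CPM and the fourth 252 CPM in pituitary 5932, where the other pituitaries had 22.1 to 211 and 126 to 179 CPM. The fifth stood apart in both glands, at 55.8 CPM in adrenal 3209 (5.02 to 23.6 CPM in the other adrenals) and at 811 CPM in pituitary 3218 (14.4 to 214 CPM in the other pituitaries). Adrenal 3209 also held 14 genes at least 4-fold above each of the other 7 adrenals, and pituitary 3218 held 32, against 0 to 7 in the other pituitaries.

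The difference between glands depended on embryo origin for 6403 genes by the interaction test, which was the reason to look at it again. It is a comparison of 4 IVP with 4 MOET calves, and the 2 adrenals with the most displaced zeros, 3213 and 5833, are 1 of each origin. The counts without these calves are given in the report, but those fits also have fewer calves. The cause was not tested.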

How the results depend on the processing

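The count of genes that differed between the glands was 12858 and ran from 12390 to 12989 with each calf left out, and that of genes at least 4-fold different, 2879, from 2847 to 3011. Under the other settings the counts stayed within 1.5 times those given, except that genes at least 4-fold higher in the adrenal numbered 1675 with no low-count filter. No gene called both here and under an alternative changed direction, but the alternatives draw on the same libraries, so such a change could hardly arise. Library totals in place of TMM moved the share higher in the adrenal from 49.3% to 57.0% of calls. Without the replicate block 13278 genes passed, 12813 of them also called with it, and 2834 were at least 4-fold different. The 4 named genes kept their direction and passed under all alternatives run, where ENSBTAG00000015274 has no value without the 100 most counted genes, being one of them. For the interaction with origin, leaving out each calf gave 3935 to 7245 genes (1981 to 3740 with a larger and 1877 to 3505 with a smaller ratio in IVP calves); 3830 passed with all 4 tissues in 1 fit (1706 larger), 1165 were larger on library totals, 6860 passed without the pairing by calf, and 6477 without genes holding a displaced 0 or 1. Without calves 3213 and 5833, an alternative added after seeing the data, 0 passed in edgeR and 2743 in DESeq2 (1405 larger, 1338 smaller), and the cause was not tested. Depth limits genes under about 1 CPM, and the uneven small counts weigh most on them.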

Other observations

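Displaced counts of 0 or 1 were also found in the 2 tissues outside the comparison. Hypothalamus 3218 had 49 and testicle 3209 had 57 genes at 0 or 1 where the other 7 libraries of the tissue had at least 10 counts, against 0 to 7 and 0 to 3 in the other libraries of those tissues. At counts of 2 or 3 there were 0 such entries in the hypothalamus and 6 in the testicle, and at 4 or 5 there were 67 and 78. Among genes with a median of 20 to 60 counts in the other 7 adrenals, adrenal 5833 had 49 at 0, 34 at 1, 0 at 2 or 3 and 27 at 4 to 9, and adrenal 3213 had 88, 32, 0 and 3.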
